A study of Homo sapiens with 12 samples.

Results

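The genes described here are OXCT1 and 6 further genes of ketone body metabolism, ACAT1, ACAT2, BDH1, BDH2, HMGCS1 and AACS, which are 7 of the 61163 genes in the count tables. They were taken by symbol, and OXCT1 was singled out because its counts fell in the knockout, and fell less in the nucleolar fraction. For that reason its differences between the genotypes, and between the fractions in that difference, are given below as a description with no test, while the other 6 genes were tested. According to the sample titles, the RNA came from HEK293T cells, an established human embryonic kidney line that carries the SV40 large T antigen. The cells were either wild-type (HEK WT) or had HNRNPUL1 knocked out by CRISPR-Cas9 with guides in exons 2 and 3 (HEK UL1 KO). The paper's list of abbreviations, however, gives HEK WT as wild-type HEK293 and HEK UL1 KO as a HEK293T line. Cells of both genotypes grew in the same high-glucose medium with fetal calf serum and received no treatment. Each genotype was separated into a nucleolar fraction (NO) and a fraction with the cytoplasm and the rest of the nucleus (CN), with 3 libraries per genotype and fraction and 12 in all, which the submitters call biological triplicates. The sources used here do not say whether HEK UL1 KO is 1 clone, so differences between the genotypes cannot be told apart from differences between the 2 cell lines.

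Ketone bodies are small fuels that the liver makes from acetyl-CoA during fasting and that other tissues burn in their mitochondria. The first of them is acetoacetate, which BDH1 converts to and from β-hydroxybutyrate. In tissues that use ketones, OXCT1 (succinyl-CoA:3-ketoacid-CoA transferase, SCOT) moves CoA from succinyl-CoA to acetoacetate, and ACAT1 splits the acetoacetyl-CoA into acetyl-CoA. In the cytosol, AACS activates acetoacetate for lipid synthesis, and ACAT2 and HMGCS1 build HMG-CoA, at the start of the mevalonate and cholesterol pathway. BDH2 is a cytosolic dehydrogenase that was named for its likeness to BDH1.

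Total counts ranged from 37141666 to 104040073 per library, of which rRNA genes and rRNA pseudogenes took 55.3 to 65.1% in NO and 73.9 to 78.7% in CN. Libraries of the same group differed by more than sampling noise (chi-square per gene of at least 17.1, on raw counts with rRNA genes included). This value cannot tell separate cultures from separate library preparations. All were kept as separate replicates on the submitters' word, and the p values below measure the spread between these libraries. HEK WT NO replicate 3 differed from the other libraries of its group, with a TMM factor (edgeR's scaling factor for composition) of 1.40 against 0.69 and 0.622 in the other HEK WT NO libraries. The HEK UL1 KO NO libraries had factors of 1.34, 1.09 and 1.15, between those of HEK WT NO replicate 3 and the other HEK WT NO libraries. HNRNPUL1, the targeted gene, fell in both fractions, by 1.83 on the log2 scale in CN (adjusted p = 2.12e-07) and by 2.00 in NO (adjusted p = 0.00649, edgeR's quasi-likelihood test). All 8 HEK293T markers examined had counts in all groups, and their summed level in CN was 42.0 to 50.1 CPM in HEK WT and 25.1 to 25.8 CPM in HEK UL1 KO. INA, VIM and NEFM were lower and KRT8, LHX1, KRT18 and PAX2 higher in HEK UL1 KO in CN. The summed level of 5 fibroblast markers in CN was 0.721 to 0.838 CPM in HEK WT and 1.45 to 1.91 CPM in HEK UL1 KO, with COL1A1 and LUM higher. In CN, the 5 hepatocyte markers summed to 0.0885 to 0.239 CPM in HEK WT and 0.24 to 0.388 CPM in HEK UL1 KO, and the 5 blood cell markers to at most 0.479 CPM. In NO, the summed levels in HEK WT and HEK UL1 KO were 31.3 to 57.3 and 20.8 to 25.7 CPM for the HEK293T markers and 2.31 to 2.75 and 3.28 to 4.32 CPM for the fibroblast markers. The hepatocyte markers summed to at most 1.64 CPM and the blood cell markers to at most 2.60 CPM in NO, and none of the 15 was at 0 in all libraries of a group. The part of these marker differences in the results below was not tested.

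The promoters of the 2 members with the largest falls in CN, OXCT1 and BDH1, are shown because they differ in base composition. They are the 250 bases before the gene start in RefSeq (GRCh38.p14), 5′ to 3′ on the minus strand on which both genes lie, with GC boxes (GGGCGG on either strand) in capitals.
OXCT1, chr5:41870426-41870675: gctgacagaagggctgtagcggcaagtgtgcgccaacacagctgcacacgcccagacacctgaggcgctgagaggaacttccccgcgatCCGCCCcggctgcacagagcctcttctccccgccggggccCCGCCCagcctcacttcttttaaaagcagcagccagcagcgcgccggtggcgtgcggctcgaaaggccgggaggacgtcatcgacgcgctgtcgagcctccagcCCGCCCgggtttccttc
BDH1, chr3:197573344-197573593: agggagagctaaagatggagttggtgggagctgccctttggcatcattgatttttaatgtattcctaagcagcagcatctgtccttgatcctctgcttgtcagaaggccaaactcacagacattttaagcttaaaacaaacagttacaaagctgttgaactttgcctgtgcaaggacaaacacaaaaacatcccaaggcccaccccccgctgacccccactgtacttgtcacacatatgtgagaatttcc
The OXCT1 promoter was 68.0% G and C with 25 CpG sites, and the BDH1 promoter was 45.6% G and C with 1 CpG site, against medians of 58% and 11 CpG sites over 35116 promoters of the same length. OXCT1 held 3 GC boxes and BDH1 none, and 42.6% of all promoters held at least 1. CCAAT, searched on both strands, was in neither of these promoters and in 32% of all, while the promoters of HMGCS1 and ACAT1 held 2 matches each. Promoter entries matched 6 of the 7 members, without ACAT2. AACS (77.6% G and C, 28 CpG sites, 3 GC boxes) and ACAT1 (69.2%, 23 and 3) had values near those of OXCT1. BDH2 (40.8%, 2 and 0) had values near those of BDH1. The genotype differences of AACS, ACAT1 and BDH2 in CN did not pass (below). HMGCS1, which fell in CN, had 66.0% G and C, 23 CpG sites and 2 GC boxes. Such matches describe the letters in this window only.

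OXCT1 is on the minus strand of chromosome 5 from 41730065 to 41870425 (GENCODE 44 on GRCh38), a span of 140.4 kb with 17 exons in its canonical transcript. In CN, its counts were 684, 720 and 726 in HEK WT and 44, 52 and 50 in HEK UL1 KO. Scaled by library size and TMM factor within the fraction (CPM), the levels were 8.13, 8.61 and 9.18 CPM in HEK WT and 0.602, 0.693 and 0.844 CPM in HEK UL1 KO. All 3 knockout libraries were far below all 3 wild-type libraries, and the lowest wild-type level was 9.63 times the highest knockout level. The mean was 8.64 ± 0.529 CPM (SD, n = 3) in HEK WT and 0.713 ± 0.122 CPM (SD, n = 3) in HEK UL1 KO, and the fitted log2 difference was -3.61, or 8.21% of the wild-type level. Ordered from the lowest log2 difference, OXCT1 was number 41 of the 27234 genes tested in CN. Fewer cells that express the gene and less RNA per cell cannot be told apart in these bulk libraries, for OXCT1 or for any gene below.

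In NO, the counts of OXCT1 were 333, 323 and 498 in HEK WT and 444, 153 and 143 in HEK UL1 KO. The levels were 8.55, 9.99 and 8.40 CPM in HEK WT and 4.01, 3.60 and 3.35 CPM in HEK UL1 KO. The high count of HEK UL1 KO replicate 1 went with that library's larger total, and after scaling the genotypes did not overlap. The fitted log2 difference in NO was -1.29, or 40.8% of the wild-type level, and OXCT1 was number 492 from the lowest of 34836 genes. On the scale of all 12 libraries, the mean level in HEK WT was 11.2 ± 0.928 CPM in CN and 6.99 ± 0.498 CPM in NO (SD, n = 3). In HEK UL1 KO it was 0.868 ± 0.14 CPM in CN and 2.98 ± 0.359 CPM in NO (SD, n = 3). The level in NO was therefore 0.627 times that in CN in HEK WT and 3.44 times that in CN in HEK UL1 KO. In the fit of all 12 libraries, the knockout difference in NO lay 2.46 above that in CN on the log2 scale, number 107 from the highest of 37806 genes. Markers of other cell types were also higher in NO than in CN in HEK WT, beside 31.9% of all genes. They were 2 of 3 tested fibroblast markers and the 1 tested marker each of hepatocytes and blood cells (DCN by 2.80 and PTPRC by 2.46 on the log2 scale, edgeR). The part of a low background of this kind in the levels of OXCT1 and BDH1 in NO was not tested.

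**Figure D1:**
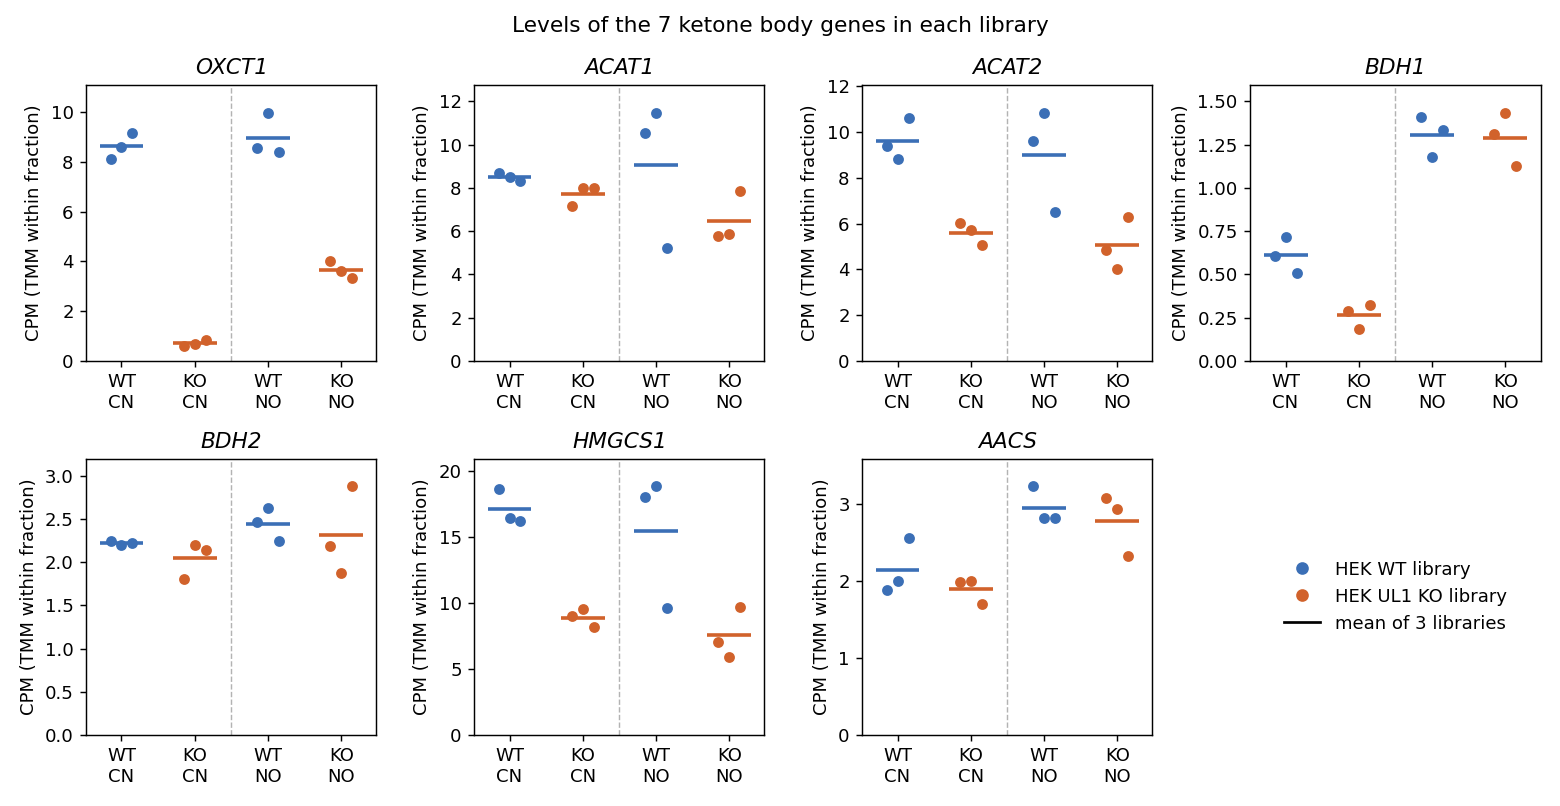
Levels of the 7 genes in CPM, scaled with TMM factors within each fraction (vertical axes from 0), for the 3 libraries of each genotype and fraction, with lines at the group means. The OXCT1 points of HEK UL1 KO lie at 0.602 to 0.844 CPM in CN and at 3.35 to 4.01 CPM in NO, below all HEK WT points of the same fraction.

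Of the 6 other members, 3 were lower in HEK UL1 KO in CN (HMGCS1, ACAT2 and BDH1) beside 22.3% of all genes tested, and 0 were higher beside 15.6% (edgeR, with 0 higher at an unadjusted p under 0.05 and also 0 with DESeq2). The cytosolic genes of HMG-CoA synthesis moved most firmly. HMGCS1, which condenses acetyl-CoA and acetoacetyl-CoA, was at 18.6, 16.4 and 16.2 CPM in HEK WT and at 8.96, 9.49 and 8.15 CPM in HEK UL1 KO. The genotypes did not overlap, and HMGCS1 fell by 0.94 on the log2 scale (standard error 0.0854, adjusted p = 1.89e-05). ACAT2, the cytosolic acetoacetyl-CoA thiolase, was at 9.38, 8.83 and 10.6 CPM in HEK WT and at 6.02, 5.72 and 5.08 CPM in HEK UL1 KO. It fell by 0.78 on the log2 scale (standard error 0.0968, adjusted p = 0.000147), again without overlap. Exons of ACAT2 overlap those of TCP1 on the opposite strand by 454 bases, and TCP1, a chaperonin subunit, fell by 0.42 in CN (adjusted p = 0.00101). Exons of HMGCS1 overlap an antisense long non-coding RNA by 2497 bases. The strand setting of the counting is not given in the sources used here, so reads from these overlaps cannot be assigned to 1 gene. The same holds for ACAT1, whose exons overlap antisense long non-coding RNAs by 112 and 93 bases. Exons of BDH2 overlap those of SLC9B2 on the same strand by 266 bases, which a strand setting would not separate.

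BDH1, the mitochondrial β-hydroxybutyrate dehydrogenase, had few counts in CN, with 51, 60 and 40 in HEK WT and 21, 14 and 19 in HEK UL1 KO. The levels were 0.606, 0.718 and 0.506 CPM against 0.287, 0.187 and 0.321 CPM. The genotypes did not overlap and BDH1 fell by 1.21 on the log2 scale (standard error 0.282, adjusted p = 0.00648), but with total counts in place of TMM factors the adjusted p was 0.0543. The tables list a second entry for BDH1, whose locus is not given in the sources used here and which may share reads with the first, with 34 to 42 counts in HEK WT and 9 to 12 in HEK UL1 KO in CN (log2 difference -1.55, adjusted p = 0.00152).

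The partner of OXCT1 in ketone use, ACAT1, was at 8.70, 8.52 and 8.32 CPM in HEK WT and at 7.17, 7.98 and 8.003 CPM in HEK UL1 KO in CN. The knockout libraries lay just below the wild-type ones, and the log2 difference of -0.14 did not pass (standard error 0.0773, adjusted p = 0.171). BDH2 was between 1.81 and 2.25 CPM in the 6 CN libraries (log2 difference -0.12, adjusted p = 0.469), with the highest knockout level of 2.20 CPM next to the lowest wild-type level. AACS was between 1.71 and 2.56 CPM (log2 difference -0.18, adjusted p = 0.373), and its genotypes overlapped. With total counts, which moved the median log2 difference of all genes in CN from 0.04 to 0.24, ACAT1, BDH2 and AACS took positive values of 0.06, 0.09 and 0.05.

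In NO, 0 of the 6 genes passed in either direction, beside 0.574% of all genes lower and 0.365% higher. At an unadjusted p under 0.05, 2 were lower with edgeR (HMGCS1 and ACAT2), and DESeq2 called 1, HMGCS1 (adjusted p = 0.0379). HMGCS1 was at 17.97, 18.8 and 9.57 CPM in HEK WT and at 7.04, 5.91 and 9.66 CPM in HEK UL1 KO, a log2 difference of -1.03 (standard error 0.322, adjusted p = 0.134). ACAT2 was at 9.60, 10.9 and 6.51 CPM in HEK WT and at 4.83, 4.02 and 6.31 CPM in HEK UL1 KO, a log2 difference of -0.83 (standard error 0.291, adjusted p = 0.179). ACAT1 was at 10.6, 11.5 and 5.20 CPM against 5.75, 5.86 and 7.83 CPM (log2 difference -0.48, adjusted p = 0.453). For all of these genes the lowest wild-type CPM was that of HEK WT NO replicate 3, the library whose factor differed from the other HEK WT NO libraries. This order depended on the TMM factors. In HEK WT NO replicates 1, 2 and 3 the counts were 700, 608 and 567 for HMGCS1 and 374, 351 and 386 for ACAT2. Those of ACAT1 were 411, 371 and 308, and the library totals were 56531162, 52027494 and 42553766. Relative to these totals, replicate 3 was not the lowest for any of these genes. Without it, HMGCS1 (log2 difference -1.30, adjusted p = 0.0038), ACAT2 (-1.03, 0.00874) and ACAT1 (-0.78, 0.0265) all passed, while the number of genes called over the whole table went from 327 to 9133. Alternatives that left out no library went both ways, from -1.08 to -0.47 for HMGCS1 and from -0.87 to -0.31 for ACAT2. Over the alternatives their adjusted p reached 0.730 and 0.743, and ACAT1 was at 0.09 with total counts. BDH1, BDH2 and AACS had log2 differences of -0.02, -0.08 and -0.08 in NO, with overlapping genotypes.

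The difference between the knockout effects in NO and CN was tested as an interaction. Of the 6 genes, 0 passed in either direction, beside 0.0291% of all genes lower and 0.0846% higher, and DESeq2 also called 0. At an unadjusted p under 0.05 there was 1, BDH1, whose effect lay 1.33 higher in NO than in CN on the log2 scale (standard error 0.367, unadjusted p = 0.00192, adjusted p = 0.493). In NO, BDH1 was at 1.41, 1.18 and 1.33 CPM in HEK WT and at 1.31, 1.44 and 1.13 CPM in HEK UL1 KO, so the gap between the genotypes seen in CN was not seen in NO. For HMGCS1 and ACAT2 the interaction was 0.07 (standard error 0.335) and 0.11 (standard error 0.305), against 2.46 for OXCT1, which was chosen for this difference.

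**Figure D2:**
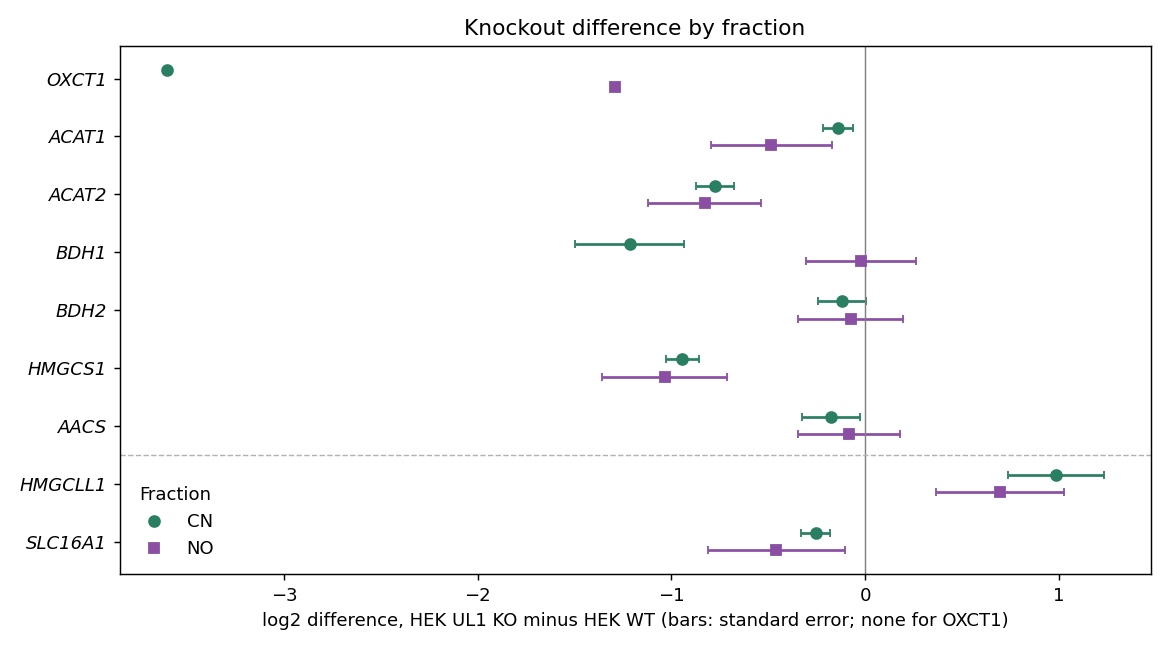
Fitted log2 differences of HEK UL1 KO minus HEK WT in CN (circles) and NO (squares) for the 7 genes, and below the dashed line for HMGCLL1 and SLC16A1. Bars are standard errors and OXCT1, chosen by this difference, has none. OXCT1 lies at -3.61 in CN and -1.29 in NO, while HMGCS1 and ACAT2 have similar values in both fractions.

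Between the fractions of HEK WT, 2 of the 6 genes were lower in NO than in CN beside 20.9% of all genes, and 0 were higher beside 31.9%. At an unadjusted p under 0.05 there was 1 higher gene with edgeR, BDH1, and DESeq2 also called 0 higher. ACAT2 was lower by 0.59 (standard error 0.167, adjusted p = 0.0155) and HMGCS1 lower by 0.64 (standard error 0.19, adjusted p = 0.0184) on the log2 scale, while BDH1 had a positive log2 difference of 0.66 that did not pass (standard error 0.288, adjusted p = 0.0793). OXCT1 had a log2 difference of -0.41, which ranged from -0.68 to -0.02 over the alternative settings. These values depended on the scaling: with total counts the median of all genes moved from 0.02 to 0.37 and 0 of the 6 genes passed. The call on ACAT2 was also lost without HEK WT CN replicate 3 (adjusted p = 0.0606) and that on HMGCS1 without HEK WT CN replicate 1 (adjusted p = 0.0625).

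Levels were compared between genes per kb of canonical transcript, on the scale of all 12 libraries. The methods do not say whether reads in introns were counted, and OXCT1 spans 140.4 kb against 17.1 kb for ACAT2. The order below therefore holds only for this choice of length. In CN of HEK WT the order was ACAT2 (8.18 ± 0.994 CPM per kb), ACAT1 (7.15 ± 0.116), HMGCS1 (4.12 ± 0.297), OXCT1 (3.39 ± 0.282), BDH2 (0.983 ± 0.029), AACS (0.853 ± 0.164) and BDH1 (0.223 ± 0.0337) (SD, n = 3). The ranges of 1 SD overlapped between ACAT2 and ACAT1 and between BDH2 and AACS, and not between HMGCS1 and OXCT1 or between OXCT1 and BDH2. In CN of HEK UL1 KO, OXCT1 was at place 6, at 0.263 ± 0.0426 CPM per kb, below BDH2 (0.855 ± 0.088) and AACS (0.71 ± 0.0694) and above BDH1 (0.0913 ± 0.0233). In NO it kept place 4 in both genotypes, at 2.12 ± 0.151 CPM per kb in HEK WT and 0.905 ± 0.109 in HEK UL1 KO, next to HMGCS1 at 2.23 ± 0.67 and 1.15 ± 0.326 (SD, n = 3), whose ranges of 1 SD it overlapped.

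OXCT2, the testis form of the transferase, was near 0 in these cells, with 1 to 7 counts per CN library. Of 15 further ketone body genes (synthesis, transport, receptors and regulators), 9 passed the filter in CN, of which 1 fell and 2 rose, beside 22.3% of all genes lower and 15.6% higher. SLC16A1, a transporter of monocarboxylates that include ketone bodies, fell by 0.26 on the log2 scale (adjusted p = 0.0184). HMGCLL1, an extramitochondrial HMG-CoA lyase, rose by 0.98 (adjusted p = 0.0101), from 1.10, 0.562 and 0.569 CPM to 1.37, 1.60 and 1.47 CPM. Its counts in CN were low, at 45 to 93 in HEK WT and 87 to 120 in HEK UL1 KO. In HEK WT it was higher in NO than in CN by 1.34 (adjusted p = 0.0232, edgeR). The transporter gene SLC16A7 rose by 0.31 in CN (adjusted p = 0.0382). With total counts 1 rose and the call on SLC16A1 was lost.

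HMGCS1 and ACAT2 stand at the head of the mevalonate pathway, and most of its other genes were also lower in CN. Of 25 mevalonate and sterol genes, all tested, 17 fell and 1 rose in CN, beside 22.3% of all genes lower and 15.6% higher. With total counts 13 fell and 1 rose, beside 6.33% lower and 13.6% higher. The list had a median log2 difference of -0.67 against 0.04 over all genes. IDI1, the isopentenyl diphosphate isomerase, fell by 1.35 on the log2 scale (adjusted p = 3.39e-06), and CYP51A1, the lanosterol demethylase, by 1.03 (adjusted p = 5.18e-06). The gene that rose was TM7SF2, a sterol reductase, named after its value was seen (log2 difference 1.10, adjusted p = 0.015). In NO, 2 of the 25 fell beside 0.574% of all genes, among them IDI1 by 1.44 (adjusted p = 0.0412), and the median was -0.73 against 0.00 over all genes. With total counts, 0 of the 25 fell in NO, beside 0.00861% of all genes. The median of the list in NO was then -0.26 and the median of all genes 0.40.

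Other pathways that share acetyl-CoA or succinyl-CoA with ketone use were described by the same counts, which changed with the scaling and are to be read beside the same shares of all genes (in CN 22.3% lower and 15.6% higher, and with total counts 6.33% lower and 13.6% higher). Of 18 citric acid cycle and succinyl-CoA genes, 11 fell and 2 rose in CN with a median of -0.41, but with total counts 1 fell and 2 rose. Fumarase (FH) fell by 1.26 (adjusted p = 3.94e-06), SDHC by 0.65 (adjusted p = 6.22e-05) and citrate synthase (CS) by 0.43 (adjusted p = 0.000526), and SDHA and IDH2, named after their values were seen, rose by 0.39 and 0.70. Of 20 fatty acid oxidation genes, 7 fell and 1 rose (2 and 1 with total counts), with a median of -0.10 against 0.04 over all genes. The dienoyl-CoA reductase gene DECR1 fell by 2.32 (adjusted p = 3.59e-06) and the medium-chain dehydrogenase gene ACADM by 1.12 (adjusted p = 1.18e-05), while ETFDH rose by 0.55 (adjusted p = 0.000812). Of 21 genes of branched-chain amino acid breakdown, whose leucine branch ends in acetoacetate, 7 fell and 1 rose, with a median of -0.19, and with total counts 1 fell and 1 rose. MCCC2 fell by 1.06 (adjusted p = 8.77e-06), AUH by 0.55 (adjusted p = 0.000613) and DLD by 0.41 (adjusted p = 0.00125), and IVD, named after its value was seen, rose by 0.47. Of 10 genes of acetyl-CoA and fatty acid synthesis, 3 fell (1 with total counts), namely SCD by 0.86 (adjusted p = 1.52e-05), ACLY by 0.53 (adjusted p = 0.000736) and MLYCD by 0.52 (adjusted p = 0.0148). In NO, 2 of the 20 fatty acid oxidation genes fell, ACADM by 1.38 (adjusted p = 0.0414) and DECR1 by 1.19 (adjusted p = 0.0442). Of the 18 citric acid cycle and succinyl-CoA genes 1 fell, FH by 1.40 (adjusted p = 0.0387). In the other lists of this paragraph 0 fell, and 0 rose in any of them. These counts stand beside 0.574% of all genes lower and 0.365% higher in NO. With total counts, 0 genes of these lists fell in NO, beside 0.00861% of all genes.

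**Figure D3:**
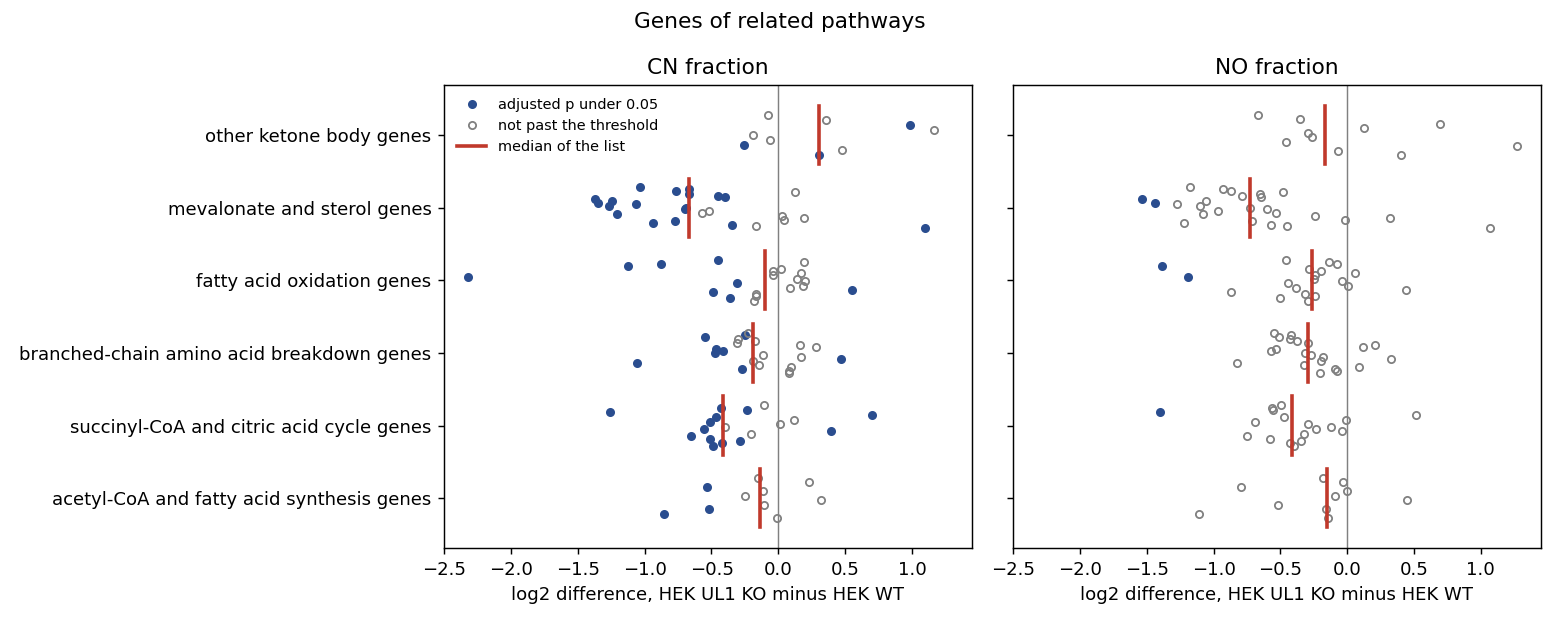
Log2 differences of HEK UL1 KO minus HEK WT for the tested genes of 6 related lists in CN (left) and NO (right). Filled points have an adjusted p under 0.05, open points do not, and red lines are the list medians, which lie at -0.67 in CN and -0.73 in NO for the mevalonate and sterol genes.

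The genes around OXCT1 were examined for a difference of the same kind. RefSeq lists 33 genes within 1 Mb of OXCT1, of which 28 are in the tables and 15 passed the filter in CN. Of these, 1 fell beside 22.3% of all genes and 6 rose beside 15.6%. The gene that fell, FBXO4, which encodes an F-box protein, fell by 0.23 (standard error 0.0813, adjusted p = 0.0478) at 54.9 kb from OXCT1. RIMOC1, the nearest tested gene at 33.9 kb, had a log2 difference of -0.13 (adjusted p = 0.257). On the other side, PLCXD3 at 219 kb rose by 0.78 (adjusted p = 0.0287). The genes that rose further away were CARD6 by 2.45 (adjusted p = 0.000912), SELENOP, which encodes a selenium transport protein, by 1.81 (adjusted p = 5.57e-05), PTGER4, a prostaglandin receptor gene, by 1.17 (adjusted p = 0.00193), the growth hormone receptor gene GHR by 0.88 (adjusted p = 5.43e-05) and RPL37 by 0.26 (adjusted p = 0.0171). In CN, CARD6 rested on 3 to 14 counts in HEK WT and 43 to 58 in HEK UL1 KO, PTGER4 on 24 to 33 and 47 to 65, and PLCXD3 on 30 to 64 and 68 to 78. Of the 3 tested fibroblast markers, 2 also rose in CN, LUM by 1.72 and COL1A1 by 0.75 (edgeR). Whether the rises near OXCT1 are particular to this region was not tested. In NO, 1 of 19 tested neighbours rose beside 0.365% of all genes, SELENOP, which rose by 2.15 (adjusted p = 0.00687). OXCT1-AS1, an antisense RNA whose exons overlap those of OXCT1 by 135 bases, had 0 to 7 counts in the 12 libraries.

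**Figure D4:**
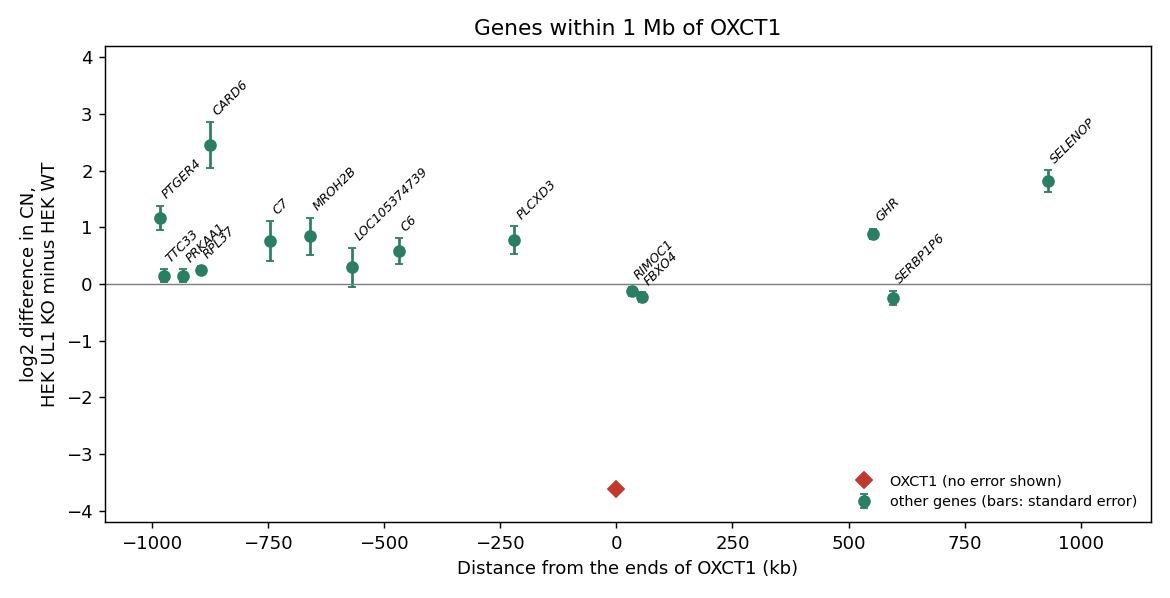
Log2 differences in CN of the 15 tested genes within 1 Mb of OXCT1 against their distance from its ends (kb), with standard errors, and OXCT1 at 0 kb. OXCT1 lies at -3.61, while the tested neighbours lie between -0.25 (SERBP1P6) and 2.45 (CARD6).

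The pattern of OXCT1 over the 12 libraries was matched most closely by MAP7D2, a microtubule-associated protein gene (Pearson's r = 0.990 of log2 CPM), followed by LOC105376010 (0.988), LINC01605 (0.987), LOC105379062 (0.984) and LINC02315 (0.982), out of 15252 genes with a mean of at least 50 counts in each fraction. These values rest on 4 groups of libraries and describe the group pattern more than the variation within groups. For MAP7D2 the log2 difference was -2.48 in CN and -0.98 in NO, and for LINC02315 it was -3.85 and -1.69, so both shared with OXCT1 the smaller knockout difference in NO by which they were found. Among the members, the correlation with OXCT1 was 0.716 for BDH1, 0.493 for HMGCS1, 0.471 for ACAT2, 0.381 for AACS, 0.085 for BDH2 and 0.080 for ACAT1 over the same 12 libraries.

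**Figure D5:**
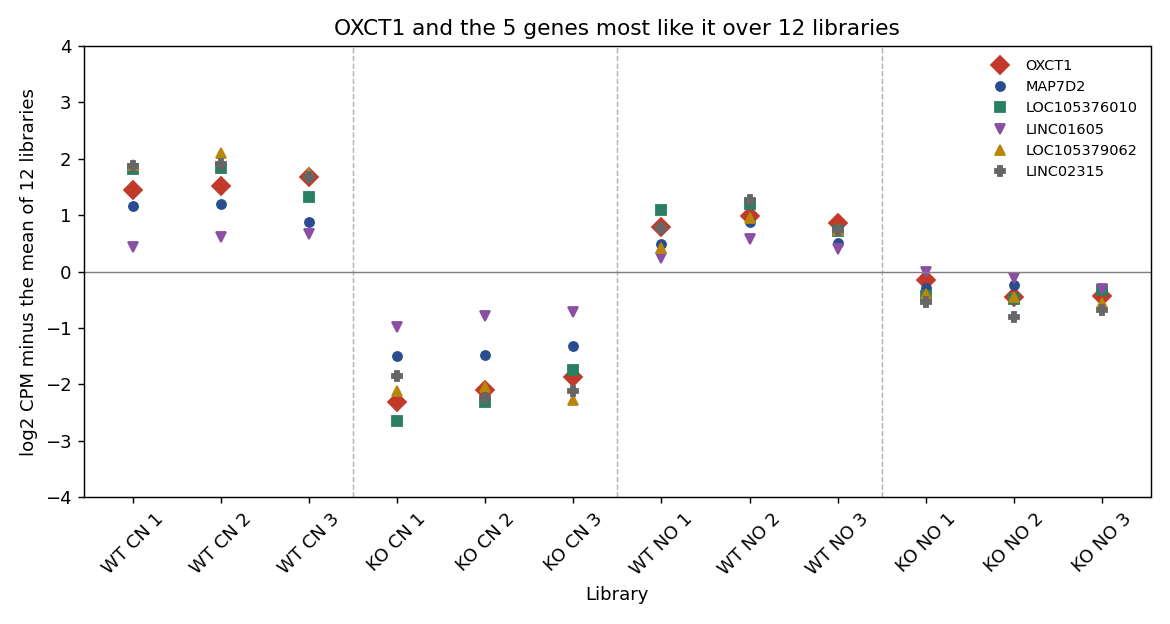
Log2 CPM minus the mean over the 12 libraries for OXCT1 and the 5 genes most like it, by library. In all 6 genes the CN libraries of HEK UL1 KO lie lowest, the NO libraries of HEK UL1 KO are higher than these, and the HEK WT libraries of both fractions are the highest.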

How the data were processed

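Total RNA from the NO and CN fractions was sequenced without rRNA depletion, in single reads of 75 bases. According to the methods and the submitters' processing notes, reads were checked with FastQC 0.11.4, trimmed with cutadapt 3.7, aligned to GRCh38 with STAR 2.7.8 with up to 20 alignments per read, and counted per gene with featureCounts. The authors deposited raw counts, as 1 table per fraction with 61163 genes. The strand and multi-mapping options and any use of molecular identifiers are not given in the sources used here.

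Counts were fitted with edgeR 4.0.16 in R 4.3.3 (quasi-likelihood F test, filterByExpr with a minimum count of 10 and a minimum total count of 15, TMM factors). Genotypes were compared within each fraction, NO with CN in HEK WT, and the interaction over all 12 libraries. P values were adjusted over all tested genes (Benjamini-Hochberg) and called under 0.05. All 12 columns matched a label and 0 were left over. Alternatives were DESeq2 1.42.0, scaling by total counts alone, TMM factors computed without rRNA genes, no filter, at least 10 counts in every library, a replicate block, all 12 libraries in 1 fit, and leaving out each library. The fits were tested on simulated counts.

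The members and gene lists were chosen with earlier results of these data known. Genes named are the 7 members, OXCT2, HMGCLL1, SLC16A1, the targeted gene, up to 3 genes per list with the smallest adjusted p in CN, the 5 genes most like OXCT1 among those with a mean of at least 50 counts in each fraction, and tested neighbours within 1 Mb. Some genes that this rule would name are not reported here. Others are marked as named after their values were seen. Figures were drawn with matplotlib 3.10.9.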

Additional observations from a re-analysis of the deposited data

How the results depend on the processing

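Of the 6 tested members, 2 or 3 were lower in CN under all alternatives, and HMGCS1 and ACAT2 passed in each of them. In NO, where the count was 0, DESeq2 gave 1, all 12 libraries in 1 fit gave 1, and leaving out 1 library gave 0 to 3. For NO against CN in HEK WT, where the count was 2, total counts gave 0, the replicate block gave 1 (adjusted p = 0.0606 for ACAT2), all 12 libraries in 1 fit gave 4, and leaving out 1 library gave 1 to 3, with 1 without HEK WT CN replicate 1 or 3. The interaction count was 0 under all 18 alternatives. Same-numbered libraries did not deviate together, between the genotypes (mean r = -0.296 in NO and -0.152 in CN) or between NO and CN of HEK WT (mean r = -0.272), so the number was not taken as a pairing, and the replicate block changed no other call on the members. OXCT1 ranged from -3.72 to -3.39 in CN and from -1.37 to -0.86 in NO, with the smallest differences under total counts. Over the whole table, the genes called in CN went from 10323 to 4217 with all 12 libraries in 1 fit and 5421 with total counts (1724 lower and 3697 higher). In NO they went from 327 to 1082 with DESeq2, 10 with total counts, 1190 with no filter, 143 with at least 10 counts in every library and 1744 with all 12 libraries in 1 fit. The interaction went from 43 to 79, 0, 104 and 20 with the first 4 of these, and NO against CN in HEK WT from 15494 to 6993 with total counts, 9577 with the replicate block, 8759 with at least 10 counts in every library and 24943 with all 12 libraries in 1 fit. Leaving out 1 library gave 123 (without HEK WT NO replicate 1) to 9133 genes (without HEK WT NO replicate 3) in NO and 25 to 57 for the interaction. The cause of these shifts was not tested.

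Changes of sign occurred only in values that did not pass, by setting. With total counts, the log2 differences in CN became 0.059 (ACAT1), 0.086 (BDH2) and 0.049 (AACS), those in NO 0.0900 (ACAT1), 0.38 (BDH1), 0.36 (BDH2) and 0.34 (AACS), the interaction of ACAT1 0.032 and the fraction difference of BDH2 0.049. For BDH1 in NO, TMM without rRNA genes gave 0.014 and all 12 libraries in 1 fit 0.038, and with at least 10 counts in every library BDH1, BDH2 and AACS in NO were at 0.091, 0.039 and 0.035. The interaction of ACAT2 was -0.039 with no filter, and that of HMGCS1 was -0.072 with no filter and -0.0080 with TMM without rRNA genes. The fraction difference of AACS was -0.27 with DESeq2, -0.25 with no filter and -0.27 with all 12 libraries in 1 fit. Leaving out 1 library gave ranges of -0.27 to 0.016 for AACS in CN, and in NO of -0.064 to 0.067 for BDH1, -0.27 to 0.094 for BDH2 and -0.17 to 0.021 for AACS. For the interaction the ranges were -0.45 to 0.0046 for ACAT1, -0.099 to 0.28 for ACAT2, -0.0029 to 0.36 for BDH2 and -0.17 to 0.25 for HMGCS1, and for the fraction difference of AACS -0.16 to 0.093.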
